A study of Mus musculus with 12 samples.

Results

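The genes described here code for 8 secreted or intracellular proteins, most of them best known from the stomach. They are the gastrokines *Gkn1*, *Gkn2* and *Gkn3*, the trefoil factors *Tff1*, *Tff2* and *Tff3*, the annexin *Anxa10* and the aspartic protease *Ctse*. The rule takes them by name, and all 8 were found among the 15687 genes of the table. RNA came from 12 tumors that grew under the skin of male C57BL6/J mice, 8 weeks old when injected with 1e+06 mTc11 cells, and that were taken on day 24. The mTc11 line (also written mTC11) is a mouse lung cancer line, from which both groups were grown. The 6 CTL tumors (shControl, genotype label WT) came from cells with a scrambled hairpin RNA, and the 6 *Filip1l*-knockdown tumors (genotype label Filip1l KD) came from cells with a hairpin against *Filip1l*. Both groups were transduced with lentivirus, selected with puromycin and kept as mixed clones, and which of the *Filip1l* hairpins the sequenced tumors carried is not stated in the sources used here. The comparison asks how these 8 genes, grouped under the name stomach-type, differed between the 2 groups. It also asks how they moved with each other among tumors of one group.

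Gastrokines are small secreted proteins of the stomach with a BRICHOS domain. *Gkn1* and *Gkn2* are made by its surface mucous cells and are commonly lost in gastric cancer. Trefoil factors are short, disulfide-rich peptides that are secreted with mucins and take part in the repair of epithelia: *Tff1* is the peptide of surface mucous cells, *Tff2* that of mucous neck cells and deep glands, and *Tff3* that of intestinal goblet cells. *Anxa10*, an annexin, and *Ctse*, the protease cathepsin E, are used as markers of stomach-type differentiation, and lung tumors that take on a mucinous form are known to switch on genes of this kind.

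The 3 gastrokine genes lie side by side on mouse chromosome 6, with 22414 bases between *Gkn1* and *Gkn2* and 3758 bases between *Gkn2* and *Gkn3*. The 3 trefoil factor genes lie in the same way on chromosome 17, with 11402 bases between *Tff3* and *Tff2* and 17112 between *Tff2* and *Tff1*. In the gastrokine cluster *Gkn1* and *Gkn2* rose, while *Gkn3*, with few reads, passed no test. Whether their changes differed was not tested. The 250 bases before the RefSeq start of these genes are shown (build GRCm38.p6), together with those of *Anxa10*, which rose as *Gkn1* and *Gkn2* did. Each runs 5′ to 3′ on the strand of its gene, and capitals mark AGATAA, a motif that GATA factors bind.

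Gkn1 chr6:87350916-87351165 (- strand): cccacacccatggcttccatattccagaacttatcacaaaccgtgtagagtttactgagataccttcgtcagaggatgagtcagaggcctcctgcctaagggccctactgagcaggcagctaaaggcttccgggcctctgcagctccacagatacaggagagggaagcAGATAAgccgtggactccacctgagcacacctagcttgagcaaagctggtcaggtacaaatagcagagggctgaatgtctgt
Gkn2 chr6:87373115-87373364 (+ strand): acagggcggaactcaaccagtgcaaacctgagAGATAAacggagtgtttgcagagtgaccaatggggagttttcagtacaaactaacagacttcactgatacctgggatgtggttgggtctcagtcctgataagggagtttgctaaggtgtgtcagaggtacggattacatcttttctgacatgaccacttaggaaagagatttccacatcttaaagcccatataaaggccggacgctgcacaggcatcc
Gkn3 chr6:87388936-87389185 (- strand): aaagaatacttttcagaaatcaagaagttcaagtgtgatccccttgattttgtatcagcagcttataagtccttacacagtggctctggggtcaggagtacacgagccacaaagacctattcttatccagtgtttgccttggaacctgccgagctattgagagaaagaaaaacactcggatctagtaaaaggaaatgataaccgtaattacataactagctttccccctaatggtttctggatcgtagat
Anxa10 chr8:62123194-62123443 (- strand): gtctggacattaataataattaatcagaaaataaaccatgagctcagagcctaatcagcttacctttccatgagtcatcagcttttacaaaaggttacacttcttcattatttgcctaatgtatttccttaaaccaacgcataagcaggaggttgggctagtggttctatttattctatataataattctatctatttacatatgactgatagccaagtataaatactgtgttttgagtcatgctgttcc

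AGATAA was found 1 time each in the windows of *Gkn1* and *Gkn2* and in neither of the other windows, and 9.97% of the 32536 RefSeq windows of this length hold it on either strand. TATAAA stood 29 bases before the start of *Gkn2* and 32 bases before that of *Anxa10* (12.3% of windows hold it). The letters TGANTCA, which AP-1 factors bind, occurred 2 times in the window of *Anxa10* and 1 time in that of *Gkn1* (6.73% of windows). TGTTTNC, bound by forkhead factors, occurred 1 time each before *Gkn2* and *Gkn3* (17.8%), and CCNCACCC, bound by Krüppel-like factors, 1 time before *Gkn1* (15.0%). Motifs for HNF4 (CAAAGTCCA), CDX (TTTATNG), SOX (CATTGT) and TCF (CTTTGAT) were not among the letters of these windows. None of these motifs overlapped another there. A match is a description of the letters, and binding was not measured.

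Values are normalized counts, reads per gene divided by a size factor of each tumor, so they compare 1 gene between tumors. Groups were compared with limma on log2 of the normalized count plus 1, and a gene was called at an adjusted p under 0.05 over all genes with a log2 fold change over 1 in size. Listed genes held 17834745 to 29502069 reads a CTL tumor and 25460564 to 32419578 a knockdown tumor. *Filip1l* itself, the targeted gene, averaged 2311 normalized counts in CTL and 1924 in knockdown tumors, and the log2 fold change was -0.26 ± 0.07 (SE; limma adjusted p = 0.00998). Since no source names separate cultures behind the replicates, the p-values measure the spread between these tumors.

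Of the 8 genes, 4 were called: *Gkn1*, *Gkn2* and *Anxa10* rose and *Tff2* fell. Over all genes tested, 10.2% were called, 6.2% as higher and 3.97% as lower. The groups of all 8 genes overlapped in at least 1 tumor, whereas those of 21.5% of all genes did not. The median log2 fold change of the 8 genes was 0.39, beside 0.0078 over all genes. In bulk tumors, fewer cells that make a gene and less RNA per cell cannot be told apart.

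**Figure D1:**
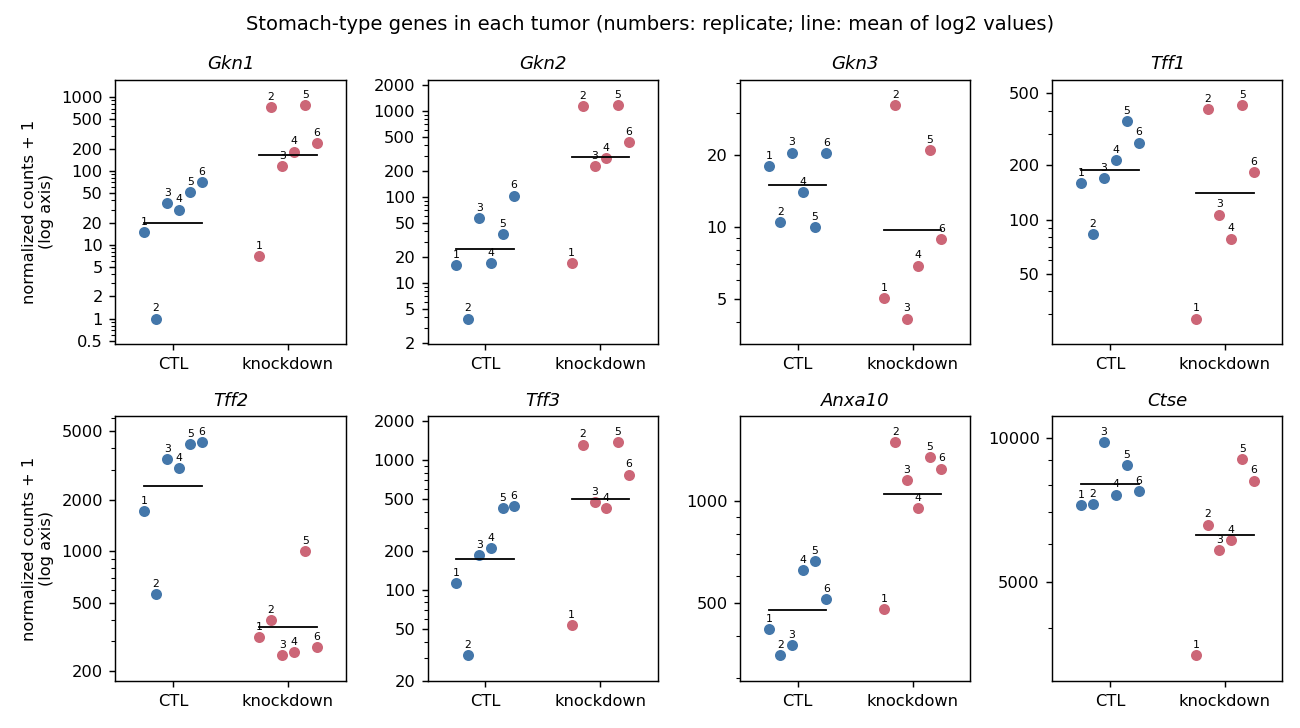
Normalized counts plus 1 (log axis) of the 8 genes in the 6 CTL and the 6 *Filip1l*-knockdown tumors, 1 point per tumor with its replicate number, and a line at the mean of the log2 values. For *Tff2*, 5 of 6 knockdown tumors lie below every CTL tumor, and for *Gkn1* and *Gkn2* 5 of 6 lie above every CTL tumor, with knockdown replicate 1 inside the CTL range.

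*Gkn2* (ENSMUSG00000030049, chromosome 6, 87373357 to 87379497, + strand of GRCm38) had the largest log2 change of the 8 genes. In CTL tumors it ran from 2.84 normalized counts in replicate 2, which is 3 reads, through a median of 25.9 to 102 in replicate 6. In *Filip1l*-knockdown tumors it ran from 16.1 in replicate 1 through a median of 354 to 1160 in replicate 5. All knockdown tumors but replicate 1 were above the highest CTL tumor. The mean rose from 37.9 ± 36.6 normalized counts to 540 ± 487 (SD, n = 6 each), and the log2 fold change was 3.57 ± 0.97 (SE; limma adjusted p = 0.00869, exact permutation p = 0.0130). The call held in each of the 12 fits without 1 of the tumors, where the log2 fold change lay between 3.03 without CTL replicate 2 and 4.38 without knockdown replicate 1.

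*Gkn1* (ENSMUSG00000030050, 87345650 to 87350942, - strand), its neighbour, moved in the same way. No read was counted in CTL replicate 2, which allows up to 2.84 normalized counts, and the other CTL tumors held 14.0, 36.0, 28.9, 50.8 and 68.8. The knockdown tumors held 6.05, 728, 115, 181, 773 and 236 normalized counts in replicates 1 to 6, so replicates 2 and 5 were the highest for *Gkn1* and *Gkn2* alike. The log2 fold change of *Gkn1* was 3.06 (SE 1.16; limma adjusted p = 0.0472). This call was near the threshold and was lost in 9 of the 12 fits without 1 tumor. These were the fits without CTL replicates 1 to 4 (adjusted p of 0.0806, 0.0954, 0.0539 and 0.0618) and without knockdown replicates 2 to 6 (0.104, 0.0636, 0.0725, 0.103 and 0.0822). Its log2 fold change was 2.20 without CTL replicate 2, the tumor with no read, and 3.97 without knockdown replicate 1 (limma adjusted p = 0.00332). On whole reads edgeR gave it an adjusted p of 0.00722 and DESeq2 one of 0.00298.

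*Gkn3* (ENSMUSG00000030048, 87383256 to 87388935, - strand), the last gene of the cluster, had few reads, 3 to 30 in each tumor. CTL tumors held between 8.96 and 19.4 normalized counts, with a median of 15.0. Knockdown tumors held between 3.13, which is 3 reads, and 31.2, with a median of 6.87, and 4 of the 6 were below every CTL tumor. Replicates 2 and 5, the highest for the other gastrokines, were again the highest. The log2 fold change was -0.61 ± 0.49 (SE; limma adjusted p = 0.341, exact permutation p = 0.262) and passed no test.

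*Tff2* (ENSMUSG00000024028, chromosome 17, 31141049 to 31144282, - strand) was the highest trefoil factor per kilobase in CTL tumors, and it fell. It ran from 565 normalized counts in CTL replicate 2 through a median of 3254 to 4337 in replicate 6. In knockdown tumors it ran from 247 in replicate 3 through a median of 297 to 1000.4 in replicate 5. Only replicate 5 reached into the CTL range, above CTL replicate 2. The mean fell from 2887 ± 1480 normalized counts to 416 ± 291 (SD, n = 6 each), 6.94-fold lower, and the log2 fold change was -2.72 ± 0.47 (SE; limma adjusted p = 0.000358, exact permutation p = 0.00433). Leaving out any 1 tumor kept the call, with values from -3.14 to -2.55. Per kilobase of exon, the mean level of *Tff2* stood at the 98.6th percentile of genes in CTL tumors and the 86.8th in knockdown tumors.

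*Tff3* (ENSMUSG00000024029, 31125306 to 31129646, - strand), the goblet cell peptide next to it, had higher values in most knockdown tumors, though it was not called. CTL tumors ran from 30.3 normalized counts in replicate 2 through a median of 197 to 444 in replicate 6. Knockdown tumors ran from 52.4 in replicate 1 through a median of 625 to 1383 in replicate 5. With all tumors the log2 fold change was 1.53 ± 0.78 (SE; limma adjusted p = 0.130, exact permutation p = 0.132). The value moved with single tumors in both directions: without knockdown replicate 1 the log2 fold change was 2.18 (limma adjusted p = 0.00844), and without CTL replicate 2 it was 1.04 (limma adjusted p = 0.277). Without both, a choice made after the values were seen, it was 1.68 (limma adjusted p = 0.00602). DESeq2 on whole reads called *Tff3* as higher (log2 fold change 1.66, adjusted p = 0.0488) and edgeR did not (1.65, adjusted p = 0.0558), beside 10.5% and 10.4% of all genes called by these tools.

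*Tff1* (ENSMUSG00000024032, 31161395 to 31165277, - strand), the surface mucous cell peptide, had almost the same mean in both groups, 207 ± 93.4 and 205 ± 173 normalized counts (SD, n = 6 each). CTL tumors ran from 82.4 through a median of 191 to 351, and knockdown tumors from 27.2 through a median of 144 to 429. Knockdown replicates 2 and 5 were above every CTL tumor, while replicates 1 and 4 were below every CTL tumor. The log2 fold change was -0.43 ± 0.58 (SE; limma adjusted p = 0.592, exact permutation p = 0.556), and without knockdown replicate 1 it was 0.03. Exons of *Tff1* overlap those of *Gm15318* on the other strand, and the reads of such a pair cannot be told apart without strand.

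*Anxa10* (ENSMUSG00000031635, chromosome 8, 62057042 to 62123150, - strand) rose with less spread than the gastrokines. CTL tumors ran from 348 normalized counts in replicate 2 through a median of 464 to 665 in replicate 5. Knockdown tumors ran from 479 in replicate 1 through a median of 1201 to 1497 in replicate 2, and the other 5 were above every CTL tumor. The mean rose from 490 ± 133 normalized counts to 1113 ± 360 (SD, n = 6 each), and the log2 fold change was 1.14 ± 0.25 (SE; limma adjusted p = 0.00213, exact permutation p = 0.00866). Genes of chromosome 8 had a median log2 fold change of -0.19, and with the chromosome medians removed *Anxa10* stood at 1.34 (limma adjusted p = 0.000702).

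*Ctse* (ENSMUSG00000004552, chromosome 1, 131638306 to 131675505, + strand) had close values among CTL tumors, which ran from 7240 through a median of 7684 to 9820 normalized counts. Knockdown tumors ran from 3511 in replicate 1 through a median of 6354 to 9043 in replicate 5, and 4 of the 6 were below every CTL tumor. The log2 fold change of -0.36 ± 0.18 (SE; limma adjusted p = 0.128, exact permutation p = 0.0996) passed no test. Per kilobase of exon, mean levels in CTL tumors ranked *Tff2* (4944 normalized counts per kilobase), *Ctse* (2549), *Tff3* (476), *Tff1* (294), *Anxa10* (214), *Gkn2* (48.1), *Gkn1* (26.5) and *Gkn3* (17.0). In knockdown tumors the order was *Ctse* (2064), *Tff3* (1499), *Tff2* (712), *Gkn2* (685), *Anxa10* (486), *Tff1* (292), *Gkn1* (272) and *Gkn3* (14.0), and each neighbour in this order overlapped the next in its range over tumors. In CTL tumors neighbours overlapped too, except *Ctse* with *Tff3* and *Anxa10* with *Gkn2*.

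**Figure D2:**
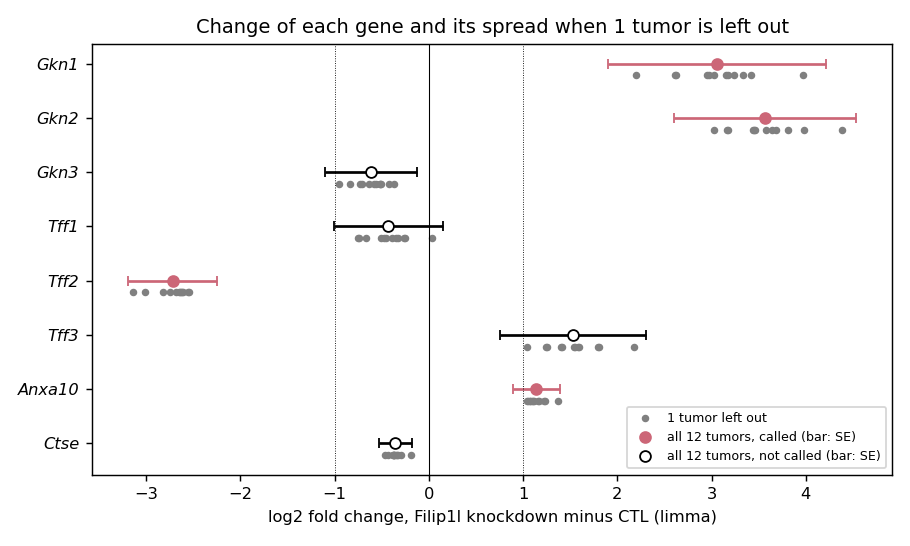
Log2 fold change of the 8 genes, *Filip1l*-knockdown minus CTL, from limma on all 12 tumors (large points, bars: standard error, filled where called) and with each tumor left out in turn (small grey points). Dotted lines mark a log2 fold change of 1 in size. *Tff2* stays between -3.14 and -2.55 and *Tff1* crosses 0 in 1 fit.

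Trefoil factors were next compared with each other inside each tumor, as ratios of the normalized count plus 1. The pairs were chosen after the values were seen, so their ratios are a description, with no test. The ratio of *Tff2* to *Tff3* ran from 9.74 to 18.6 in CTL tumors (median 14.8) and from 0.300 to 5.94 in knockdown tumors (median 0.564). The groups did not overlap, and the ratio was under 1 in 5 of 6 knockdown tumors and over 1 in all 6 CTL tumors. The values are not corrected for exon length, 584 bases for *Tff2* and 493 for *Tff3*, so the ratio compares tumors rather than levels. The mean log2 ratio was 3.79 ± 0.41 in CTL and -0.46 ± 1.56 in knockdown tumors (SD, n = 6 each), a difference of -4.25.

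*Tff3* relative to *Tff1* also separated the groups, from 0.375 to 1.67 in CTL tumors and from 1.89 to 5.44 in knockdown tumors (log2 difference 1.96). The ratio of *Tff2* to *Tff1* ran from 6.79 to 20.3 in CTL and from 0.967 to 11.3 in knockdown tumors, a log2 difference of -2.29, and these groups overlapped through knockdown replicate 1. Of the 3 trefoil factors only *Tff2* was called by itself. *Gkn2* relative to *Tff3* was 0.0806 to 0.304 in CTL and 0.321 to 0.854 in knockdown tumors, a log2 difference of 2.03 without overlap. *Gkn2* relative to *Gkn1* differed by 0.51 on the log2 scale and *Gkn2* relative to *Anxa10* by 2.43, both with overlap.

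**Figure D3:**
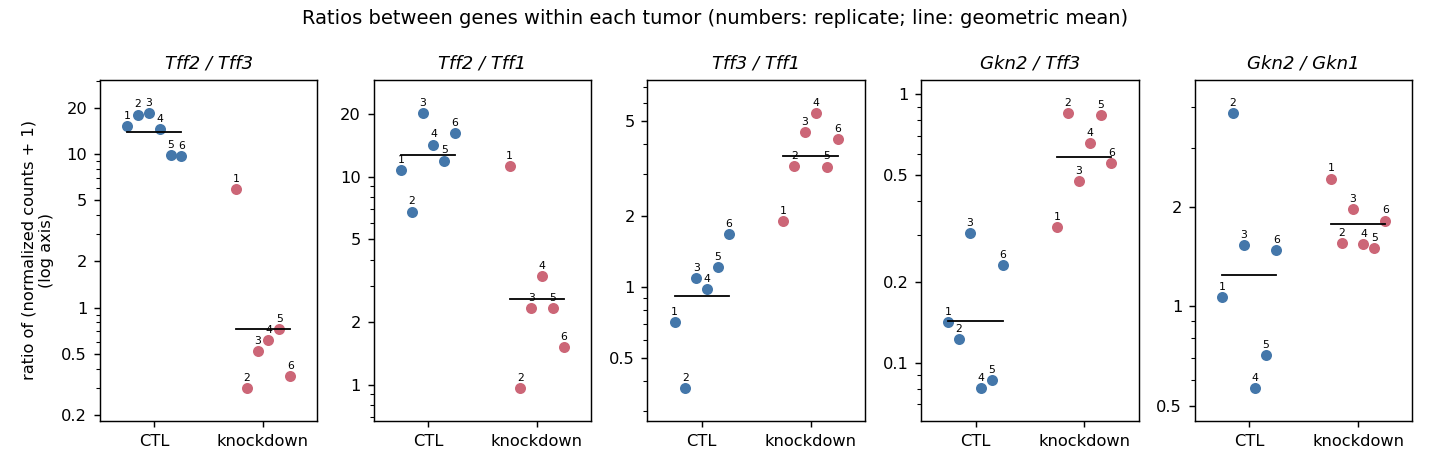
Ratios of normalized counts plus 1 between pairs of the genes (log axis), 1 point per tumor with its replicate number and a line at the geometric mean, in 6 CTL and 6 *Filip1l*-knockdown tumors. *Tff2* to *Tff3* lies between 9.74 and 18.6 in CTL tumors and at most at 5.94 in every knockdown tumor, and *Gkn2* to *Gkn1* overlaps between the groups.

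Most pairs of the 8 genes had a positive correlation across the tumors of 1 group. Of the 28 pairs, 27 had a positive Pearson correlation of log2 values in CTL tumors (median r 0.63) and 28 in knockdown tumors (median r 0.88). Over all pairs of the 12888 genes that average 50 normalized counts or more, 49.9% were positive in CTL and 50.2% in knockdown tumors. An exact permutation p adjusted over the 56 correlations was under 0.05 for 9 CTL pairs and 14 knockdown pairs, while by Spearman's rho none was (lowest adjusted p = 0.0519, 25 of 56 under 0.05 unadjusted). All these points share the same 6 libraries of a group, and much of the range came from a few of them. CTL replicate 2 was the lowest of its group for 6 of 8 genes and knockdown replicate 1 for 6 of 8, while knockdown replicate 5 was the highest for 6 of 8.

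*Gkn1* and *Gkn2* correlated at r = 0.92 in CTL tumors (exact permutation p = 0.00417, adjusted 0.0179) with a rho of 0.94 (exact permutation p = 0.0167, adjusted 0.0583). In knockdown tumors their r was 0.999 (exact permutation p = 0.00139, adjusted 0.0179) and their rho 1.00 (exact permutation p = 0.00278, adjusted 0.0519). Without the 2 tumors farthest from the median, r was 0.81 in CTL and 0.99 in knockdown tumors, so the neighbouring gastrokines moved together in both groups. *Gkn1* and *Tff3*, which lie on different chromosomes, correlated at 0.97 in CTL and 0.99 in knockdown tumors (exact permutation p = 0.00417, adjusted 0.0179 in each), with a rho of 0.94 in each (exact permutation p = 0.0167, adjusted 0.0583), and at 0.90 and 0.93 without the 2 farthest tumors.

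*Tff2* followed *Tff3* in CTL tumors, with r = 0.97 (exact permutation p = 0.00417, adjusted 0.0179), a rho of 0.94 (exact permutation p = 0.0167, adjusted 0.0583) and 0.91 without the 2 farthest tumors. In knockdown tumors its r with *Tff3* was 0.43 (exact permutation p = 0.315, adjusted 0.392) with a rho of 0.60 (exact permutation p = 0.242, adjusted 0.308), and -0.80 without the 2 farthest tumors, so no relation could be read there. The difference between the groups in this correlation was not tested. *Gkn3*, with its low counts, had no pair under 0.05 after adjustment in either group. Neither had *Ctse* and *Anxa10* in CTL tumors or *Tff2* in knockdown tumors. In CTL tumors the correlation of *Gkn1* with *Anxa10*, 0.64 over 6 tumors, was 0.06 without the 2 farthest, and that of *Gkn1* with *Ctse* went from 0.50 to -0.15. In knockdown tumors *Ctse* had r = 0.91 with *Gkn1* (exact permutation p = 0.0181, adjusted 0.0473) and a rho of 0.94 (exact permutation p = 0.0167, adjusted 0.0583), and r was 0.31 without the 2 farthest tumors, so that relation rests on those tumors.

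**Figure D4:**
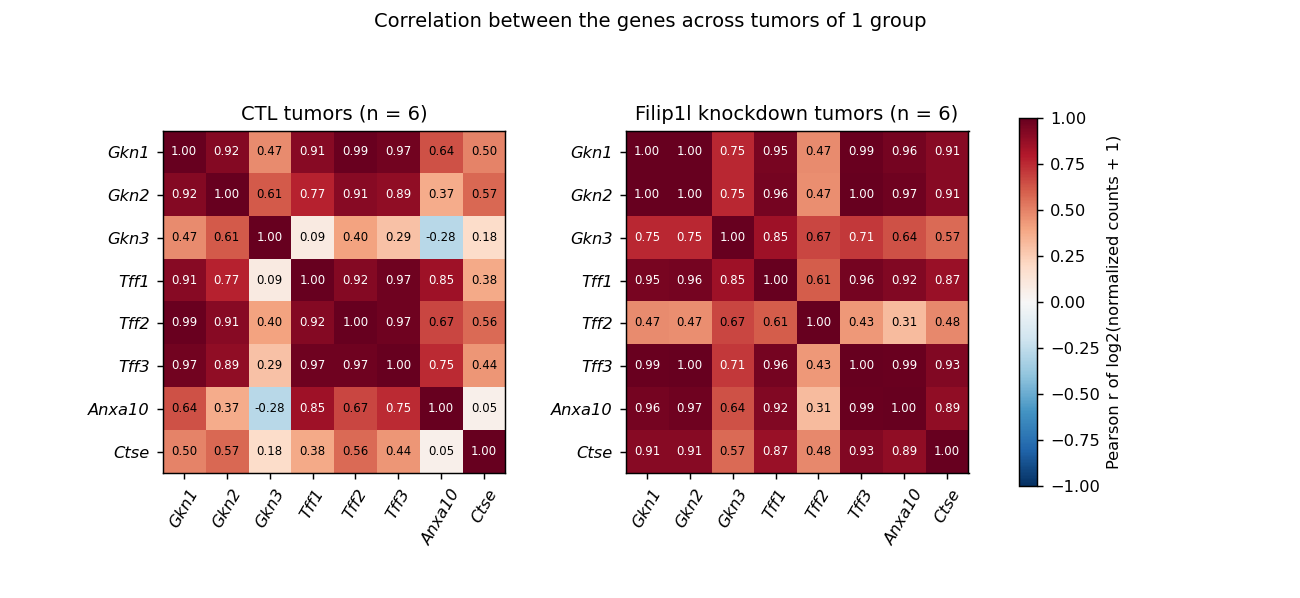
Pearson correlation of log2(normalized count + 1) for each pair of the 8 genes across the 6 CTL tumors (left) and the 6 *Filip1l*-knockdown tumors (right), with r printed in each square and coloured from -1 to 1. The row of *Tff2* is dark with *Gkn1*, *Tff1* and *Tff3* in CTL tumors (0.91 to 0.99 with *Gkn1*, *Gkn2*, *Tff1* and *Tff3*) and pale in knockdown tumors (0.31 to 0.67).

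The genes whose pattern was most like each of the 8 were taken as those with the highest mean of the 2 within-group correlations, over 12888 genes and 6 tumors a group, and are given as a description. *Tff3* itself was the nearest to *Gkn1* (mean r 0.98) and to *Tff1* (0.96). *Fcgbp*, a mucus protein that binds trefoil peptides, came next to both *Gkn1* (0.98) and *Tff3* (0.99), and *Dmbt1*, a secreted scavenger receptor of mucosal surfaces, was near *Tff1* (0.96) and *Tff3* (0.98). The nearest to *Tff3* was *Muc3a*, a membrane mucin (0.99). *Mmp15*, a membrane-bound metalloprotease, was nearest to *Gkn2* (0.98) and also near *Gkn1* (0.96), and *Bace2*, an aspartic protease like *Ctse*, and *Tfcp2l1* followed for *Gkn2* (both 0.96).

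*Tff2* had different neighbours from the other trefoil factors: *Map7*, a microtubule-associated protein (0.93), *Sftpd*, surfactant protein D (0.89), and *5330417C22Rik* (0.88). *Anxa10* went with *Gm4788* (0.98), the hypoxia-inducible *Ndrg1* (0.96) and *Mgarp* (0.96). *Ctse* went with the adhesion molecule *Nectin2* (0.97), *Misp* (0.97) and the mitochondrial enzyme *Suclg1* (0.96). *Gkn3* had *Kcnk6* (0.92), *Prmt6* (0.91) and *A130010J15Rik* (0.87), and *Tff1* had *Fam234a* (0.96) as its second.

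Other genes of stomach epithelium did not move one way. Of 28 listed genes 15 were analysed, 2 rose and 3 fell, with a median log2 fold change of -0.20. *Sult1c2*, a sulfotransferase of gastric epithelium, rose from 915 ± 385 normalized counts to 3918 ± 1239 (SD, n = 6 each, log2 fold change 2.19, limma adjusted p = 0.000118), and *Mucl3* rose too, at a log2 fold change of 2.78 (limma adjusted p = 0.00416). *Aqp5*, a water channel of pyloric glands, fell from 780 ± 142 to 242 ± 81.5 (log2 fold change -1.74, limma adjusted p = 1.88e-05). *Psca*, prostate stem cell antigen, also a surface protein of stomach mucous cells, fell from 370 ± 39.5 to 140 ± 14.2 (-1.39, limma adjusted p = 2.31e-07), and *Slc26a9*, an anion transporter of gastric surface cells, fell as well (log2 fold change -1.18, limma adjusted p = 6.52e-05). *Muc1*, a membrane mucin with the highest mean normalized count of the list, had a log2 fold change of -0.07 (limma adjusted p = 0.854), and *Bhlha15*, a chief cell factor with the lowest, one of 0.79 (limma adjusted p = 0.294). Parietal cell pump genes (*Atp4a* and *Atp4b*), *Cblif*, *Gast* and 9 further genes of the list were not analysed here.

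Among 22 transcription factors of foregut and gut epithelium that were analysed, 4 rose and 2 fell (median log2 fold change 0.13). *Sox2*, which marks stomach and other foregut epithelium, fell from 406 ± 161 normalized counts to 35.6 ± 19.7 (SD, n = 6 each, log2 fold change -3.50, limma adjusted p = 7.40e-06). *Pdx1*, active in the antrum and duodenum, fell from 1219 to 248 (log2 fold change -2.28, limma adjusted p = 5.17e-08). *Cdx2*, the master factor of intestinal identity, rose by a log2 fold change of 2.15 (limma adjusted p = 1.24e-07), and *Hnf4g* by 2.09 and *Gata4* by 1.57. For each of these 5 genes the ranges of CTL and knockdown tumors were separate. *Gata4* lies on chromosome 14, whose genes had a median log2 fold change of 0.39. *Hnf4a*, a liver and gut factor, had a log2 fold change of 0.14 (limma adjusted p = 0.152), and *Onecut2*, with the highest mean of the list, stood at 0.27. *Nkx2-1*, the lung factor and the lowest of the list, had 0.947 to 37.3 normalized counts in CTL and 4.90 to 90.6 in knockdown tumors, a log2 fold change of 0.88 (limma adjusted p = 0.443).

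Mucus proteins and receptors that trefoil factors bind were analysed for 10 of 11 genes, and 3 rose, of which *Fcgbp* and *Muc2* are also in the intestinal list. *Fcgbp* rose by a log2 fold change of 1.74 (limma adjusted p = 0.0188), *Dmbt1*, the highest of the list, by 2.22 (limma adjusted p = 6.27e-05) and the goblet cell mucin *Muc2* by 2.81 (limma adjusted p = 0.00375), from at most 13.4 normalized counts in CTL tumors to between 14.1 and 89.9. *Muc5ac* and *Muc6*, the mucins made with *Tff1* and *Tff2* in the stomach, had log2 fold changes of -0.90 and -1.01 (limma adjusted p = 0.351 and 0.0909), and edgeR and DESeq2 on whole reads called *Muc6* as lower. The chemokine receptors *Cxcr4* and *Ackr3*, put forward as receptors of *Tff2* and *Tff3*, were not called. *Cxcr4* had a log2 fold change of 0.17 (limma adjusted p = 0.438) with overlapping groups. *Ackr3* had one of -0.42 (limma adjusted p = 0.000157), under the size a call needs, though all 6 knockdown tumors were below every CTL tumor. Genes of intestinal epithelium were set beside those of the stomach: 17 of the 19 analysed rose and the median log2 fold change was 2.86. The 6 that changed most were *Lypd8* (6.09), *Guca2a* (5.64), *Sis* (5.39), *Alpi* (5.32), *Guca2b* (5.05) and *Olfm4* (4.33), and *Lgals4*, the gene of the list with the highest mean, rose by 2.19 and *Fabp2*, with the lowest, by 2.87. *Guca2a* and *Guca2b* were at or under 3 reads in 4 of 6 CTL tumors, so the size of their fold depends on the pseudocount. No gene of the table averages under 9.28 normalized counts over the 12 tumors. *Guca2a*, *Guca2b*, *Fabp2*, *Alpi*, *Muc2* and *Sis* averaged 2.74 to 7.37 in CTL tumors, so higher knockdown values put them in the table. Such genes could only count as higher, and they raise the count of 17 and the median. *Lgr5*, the only gene of the list with a negative log2 fold change (-0.99, limma adjusted p = 0.0103), was under the size a call needs.

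**Figure D5:**
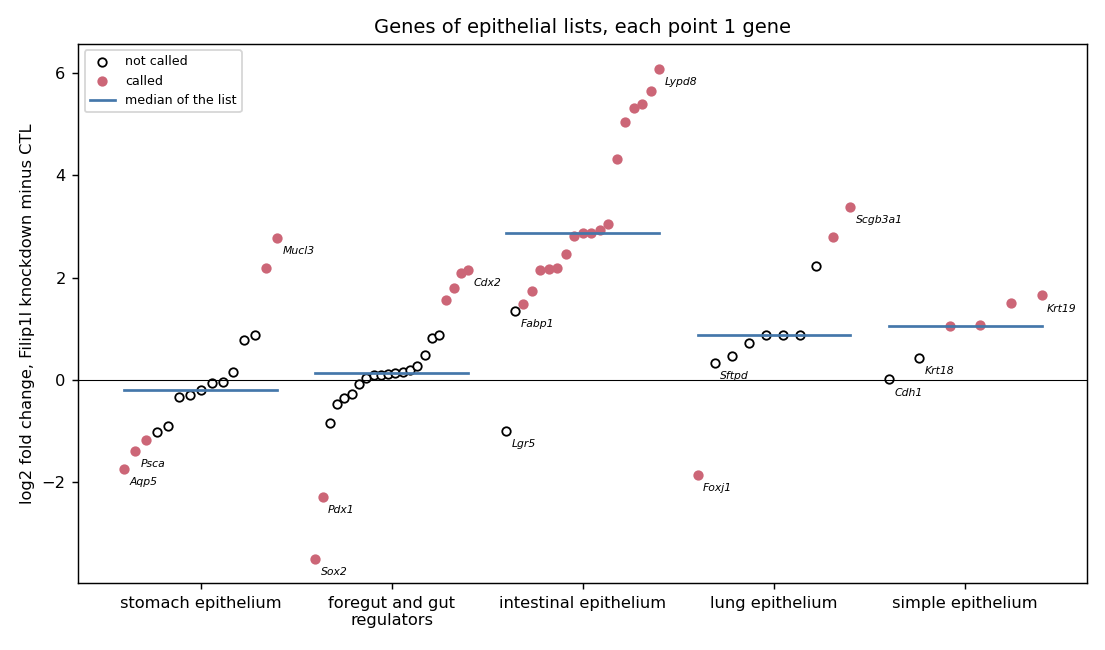
Log2 fold change (*Filip1l*-knockdown minus CTL, limma) of each gene of 5 epithelial lists, filled where called, with a line at the median of each list. Stomach genes lie on both sides of 0 (median -0.20), as do foregut and gut regulators (0.13), while 17 of 19 intestinal genes were called as higher (median 2.86). Some of these intestinal genes are in the table only through their knockdown values.

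Markers of the cells these tumors could hold were measured beside the 8 genes. The tumors are labelled as grown from lung cancer cells, and of 15 lung epithelium markers 10 were analysed, with sums of 4209 to 6195 normalized counts in CTL and 6750 to 9067 in knockdown tumors. Most of that sum came from *Abca3*, a lipid transporter of alveolar cells (2685 to 3283 in CTL and 4207 to 5655 in knockdown tumors), and *Sftpd* (832 to 2408 and 1566 to 2940). Some defining markers were scarce: *Sftpc*, the surfactant protein of alveolar type II cells, was at or under 3 reads in 5 of 6 CTL and 2 of 6 knockdown tumors. *Sftpa1*, *Scgb1a1*, *Scgb3a2*, *Lamp3* and *Slc34a2* were not analysed here. *Napsa*, also of this list, had 183 to 293 normalized counts in CTL and 262 to 624 in knockdown tumors. Its log2 fold change of 0.88 (limma adjusted p = 0.00248) was under the size a call needs. *Sftpb* rose, at a log2 fold change of 2.80 (limma adjusted p = 0.0463), and *Foxj1*, of ciliated cells, fell by 1.85 on the log2 scale (limma adjusted p = 9.82e-06). *Scgb3a1*, at or under 3 reads in all 6 CTL tumors, was at least 7.97-fold higher in knockdown tumors, against a floor of 3 reads a tumor. It averaged 1.37 normalized counts in CTL and 25.1 in knockdown tumors. Its knockdown values thus put it in the table, and it could only count as higher.

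Simple epithelium markers summed to between 149310 and 196100 normalized counts in CTL tumors and between 215093 and 394086 in knockdown tumors, without overlap (exact permutation p = 0.00216), and 4 of the 6 genes, *Epcam*, *Krt7*, *Krt8* and *Krt19*, rose. Between the groups this sum changed in the direction of *Gkn1*, *Gkn2* and *Anxa10* and opposite to *Tff2*. Its relation to these genes across the tumors of a group was not tested. Fibroblast sums lay between 171080 and 286057 in CTL and between 80278 and 263071 in knockdown tumors (exact permutation p = 0.0238). While limma, edgeR and DESeq2 each called 0 of the 8 genes, 4 had an unadjusted limma p under 0.05, all as lower. Some of these 4 also had a limma adjusted p under 0.05 and missed a call by the size of change. Neutrophil sums were 278 to 352 in the CTL group and 742 to 1153 after knockdown, with 5 of 5 genes higher. At least 1 of these neutrophil genes averaged under 9.28 in CTL tumors, so its knockdown values put it in the table. Skeletal muscle sums were 2478 to 12798 and 5601 to 95088, with 8 of 10 genes higher, and adipocyte sums 920 to 1504 and 1232 to 2111, with 1 of 5 higher. Macrophage sums were 12994 to 17533 and 11529 to 21446, with 1 of 8 higher. T cell sums were 789 to 2136 and 912 to 1688, where 0 of 6 genes were called by limma, edgeR or DESeq2 and 0 had an unadjusted limma p under 0.05. Skin epidermis sums were 1168 to 3977 and 1530 to 3720, with 1 of 5 genes lower. The part of these cell types in the results was not tested.

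Knockdown replicate 1, the lowest tumor of its group for 6 of the 8 genes, had the lowest simple epithelium sum (215093) and intestinal sum (65619) of its group, and the highest sums of fibroblast (263071), macrophage (21446) and T cell markers (1688). CTL replicate 2, the lowest of the CTL group for 6 of 8, had the next to lowest simple epithelium sum (159460) and a fibroblast sum of 235770, inside the range of its group. With both tumors left out, a choice made after their values were seen, 5 of the 8 genes were called, 4 as higher and 1 as lower. In that fit 1644 of the 15687 genes tested were called, 916 as higher and 728 as lower.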

How the data were processed

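The authors trimmed reads with Trimmomatic 0.36, aligned them with STAR 2.5.2b to mm10, counted unique hits per gene with featureCounts (Subread 1.5.2) and normalized with DESeq2, per the submitters' processing notes. The deposited values are a normalized signal, counts divided by size factors, for 15687 genes. The labels gave a group for each of the 12 tumors. Symbols and positions came from GENCODE vM21 (GRCm38) for 15655 identifiers, and promoters from RefSeq for *Gkn1*, *Gkn2*, *Gkn3* and *Anxa10*. *Tff1*, *Tff2*, *Tff3* and *Ctse* had no entry.

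Values were compared with limma 3.58.1 (R 4.3.3) on log2(value + 1), with a mean-variance trend and Benjamini-Hochberg adjustment over all genes. A filter at a mean of 5 removed 0 genes, since no gene of the table averaged under 9.28. A gene under that mean in 1 group is thus listed only if the other group was above it. Exact two-sided permutation tests used every arrangement of the labels, and correlations every order. Each value was a whole number of reads within 0.01 in 100% of cases, so edgeR 4.0.16 and DESeq2 1.42.0 were run on whole reads and called 1635 and 1652 genes, beside 1596 by limma. Libraries carry no molecular identifiers, so floors of 3 reads cover counting error only. The steps were tested on simulated data.

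The genes and all lists were chosen with earlier results of these data known. Named are the 8 genes, the called genes of each list (at most 6, by size of change) with its highest and lowest by mean, and the 3 most similar genes with a mean of at least 50. Of the skin, muscle, adipocyte, fibroblast and immune cell lists only counts and sums are given. Further genes of the lists, named for their role or direction after their values were seen, are *Muc5ac*, *Muc6*, *Cxcr4*, *Ackr3*, *Sftpc*, *Napsa*, *Hnf4a* and *Lgr5*. Alternatives were pseudocounts of 0.5 and 8, no filter or one at 20, rescaling to the 75th percentile or the same total, no trend, chromosome medians removed, the replicate block, count models and leaving out tumors. A result for 1 gene of the lists is not reported here.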

Additional observations from a re-analysis of the deposited data

Results flagged for a closer look

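In 28 groups of 6 values (the 8 genes and 6 ratios in both groups), 1 tumor stood far from the rest of its group in 4, by the size of the gap to its nearest neighbour against the range of the group on the log2 scale (Dixon's test). Chance alone marks about 1 in 20 groups. *Gkn1* was at 0 normalized counts in CTL replicate 2, against 14.0 in the next CTL tumor. *Tff2* was at 1000.4 in *Filip1l*-knockdown replicate 5, against 396 in the next knockdown tumor. *Tff3* was at 52.4 in knockdown replicate 1, against 425 in the next. The ratio of *Tff2* to *Tff3* was 5.94 in knockdown replicate 1, against 0.724 in the next, and it was still under the lowest CTL ratio.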

How the results depend on the processing

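*Gkn2*, *Tff2* and *Anxa10* kept their calls under all 24 alternatives, with log2 fold changes of 3.03 to 4.38, -3.14 to -2.55 and 1.04 to 1.37. *Gkn1* ran from 2.20 (without CTL replicate 2) to 3.97 (without knockdown replicate 1), and its call was lost with a pseudocount of 0.5 (limma adjusted p = 0.0539), without a trend (0.0731) and in 9 of 12 fits without 1 tumor (0.00332 to 0.104 over the 12). *Tff3* was called by DESeq2, without knockdown replicate 1 and with both lowest tumors left out, a choice added after seeing the data. The direction of *Tff1* turned without knockdown replicate 1, at 0.033, within a range of -0.75 to 0.033. The number of the 8 genes called ran from 3 to 5, that of stomach epithelium genes from 5 to 6, of intestinal genes from 16 to 18 and of all genes from 1352 to 1713. Where 18 intestinal genes were called, 17 were higher and 1 was lower. With a filter at a mean of 20, *Gkn3* had no value. Low counts limit *Gkn3* and CTL values of *Gkn1*.

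Replicate numbers did not pair the tumors (correlations of same-numbered tumors from -0.269 to 0.0990). With the replicate block *Gkn1* had a limma adjusted p of 0.0515. Each replicate number is in both groups, so the block cannot change a mean difference, such as the -2.29 of *Tff2* relative to *Tff1*. The block changed no other call of the 8 genes.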

Other observations

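Relatives of the 8 genes were read by family. Among 11 other annexins, 2 rose: *Anxa13*, an annexin of the intestinal brush border, went from 420 ± 83.2 normalized counts to 6179 ± 1844 (SD, n = 6 each, log2 fold change 3.84, limma adjusted p = 1.28e-08), and *Anxa11* had a log2 fold change of 1.58 (limma adjusted p = 5.62e-08), on chromosome 14, whose genes had a median of 0.39. *Anxa2*, the annexin with the highest mean, stood at 0.31 (limma adjusted p = 0.0447) and *Anxa9*, with the lowest, at 0.09 (limma adjusted p = 0.673).

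Of the other genes with a trefoil domain, the brush border enzymes *Mgam* and *Sis* rose (log2 fold changes of 4.43 and 5.39, limma adjusted p = 8.57e-09 and 2.87e-08), and the lysosomal *Gaa* stood at 0.08 (limma adjusted p = 0.260). *Sis* lay between 4.41 and 14.0 normalized counts in the CTL group and between 201 and 569 after knockdown. Among 5 other genes with a BRICHOS domain, *Itm2a* was called as lower by limma (log2 fold change -1.12, limma adjusted p = 0.00361) and edgeR but not by DESeq2, and *Itm2b*, with the highest mean, stood at 0.58 (limma adjusted p = 0.000842), under the size a call needs. Among 6 aspartic proteases beside *Ctse*, *Bace2* rose from 473 ± 145 normalized counts to 1349.5 ± 318 (SD, n = 6 each, log2 fold change 1.53, limma adjusted p = 6.69e-05), and *Ctsd*, the lysosomal cathepsin D, stood at -0.03 (limma adjusted p = 0.755). *Cym*, the protease with the lowest mean, stood at -0.29 (limma adjusted p = 0.757). *Zp1*, *Cnmd*, *Bricd5*, *Pga5* and *Ren1* were not analysed here.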
